A study of Homo sapiens with 6 samples.

Results

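DHRS2 and the DHRS4 genes form a small family of short-chain dehydrogenase/reductase genes at one locus of chromosome 14, and 5 of the 58051 genes in the count table belong to it. They were found by symbol, and the family was chosen by the measured difference of DHRS2 between the 2 groups of this study: DHRS2 (ENSG00000100867), DHRS4 (ENSG00000157326), DHRS4-AS1 (ENSG00000215256), DHRS4L1 (ENSG00000225766) and DHRS4L2 (ENSG00000187630). RNA was measured by poly(A)-selected sequencing in HEK293T, an established line derived from human embryonic kidney in which SV40 large T antigen is expressed. All cells were harvested 48 hours after transient transfection, either with the empty plasmid pcDNA3.1- (3 libraries) or with pcDNA3.1-ppk1, which carries the gene of a bacterial polyphosphate kinase (3 libraries). Each group has a library B, C and D, and libraries of one letter are matched biological replicates. A transiently transfected culture is a mixture of cells that took up plasmid and cells that did not, so each value is an average over both, and the expression of ppk1 itself was not analysed here.

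Short-chain dehydrogenases/reductases are NAD(P)(H)-dependent enzymes that oxidise or reduce steroids, retinoids, sugars, lipids and foreign carbonyl compounds. DHRS2, also named HEP27, is known as a dicarbonyl reductase that has been reported to bind the ubiquitin ligase MDM2. It is also known as a gene induced by histone deacetylase inhibitors. DHRS4 is a peroxisomal carbonyl and retinal reductase. DHRS4L2 and DHRS4L1 arose by duplication of DHRS4, and DHRS4L1 is annotated as a transcribed pseudogene. DHRS4-AS1 is a long non-coding RNA transcribed from the opposite strand of DHRS4, and it has been reported to repress the DHRS4 genes through histone methyltransferases.

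In the order of GENCODE release 29, DHRS2 comes first on the plus strand, followed by 7 non-coding genes and pseudogenes, then DHRS4-AS1 on the minus strand, and DHRS4, DHRS4L2 and DHRS4L1 on the plus strand. Relative to the RefSeq start of DHRS4, that of DHRS2 lies at -323655 bases. The RefSeq start sites of DHRS4-AS1 lie 427 and 1342 bases inside DHRS4, and from there it is read back across the start of DHRS4. The GENCODE span of DHRS4-AS1 reaches further. It covers all of DHRS4 and 51.9% of the span of DHRS4L2, on the opposite strand of both. The promoters of DHRS2 and DHRS4 are shown because these genes had the largest differences of those called and have very different promoters. The third DHRS4L2 promoter is shown because it is a copy of the DHRS4 promoter. The sequences are RefSeq's (GRCh38.p14), plus strand, from 250 bases before to 20 bases after the start site, and capitals mark matches on either strand to the TATA box (TATAAA), the E-box form CAGCTG and the GC box (GGGCGG).
DHRS2, chr14:23629865-23630134: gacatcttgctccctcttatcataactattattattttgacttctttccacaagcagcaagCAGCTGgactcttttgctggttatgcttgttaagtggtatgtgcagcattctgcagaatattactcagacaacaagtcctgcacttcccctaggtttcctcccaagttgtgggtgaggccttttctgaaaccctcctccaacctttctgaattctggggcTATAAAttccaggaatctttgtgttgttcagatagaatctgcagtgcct
DHRS4, chr14:23953520-23953789: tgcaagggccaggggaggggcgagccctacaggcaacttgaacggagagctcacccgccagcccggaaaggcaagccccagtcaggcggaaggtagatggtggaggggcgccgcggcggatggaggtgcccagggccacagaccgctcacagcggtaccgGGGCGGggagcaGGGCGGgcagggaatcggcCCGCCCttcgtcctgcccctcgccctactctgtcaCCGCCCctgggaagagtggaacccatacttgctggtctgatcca
DHRS4L2, chr14:23988679-23988948: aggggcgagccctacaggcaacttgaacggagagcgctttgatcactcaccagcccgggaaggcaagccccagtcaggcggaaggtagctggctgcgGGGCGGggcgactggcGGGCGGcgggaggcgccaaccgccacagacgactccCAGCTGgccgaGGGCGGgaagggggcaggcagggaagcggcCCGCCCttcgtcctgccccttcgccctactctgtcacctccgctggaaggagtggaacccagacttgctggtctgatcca

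The DHRS2 promoter had a GC content of 43.3% and 0 CpG dinucleotides. Of the 35116 RefSeq promoters of this length, 5.17% had 0 CpG, and their median GC content was 58.1%. It held TATAAA with its first base 29 bases before the start site, a motif found in 11% of all promoters, and 1.62% of promoters had both TATAAA and 0 CpG. It also held the E-box CAGCTG (15.6% of promoters) at position -189 and no match to CACGTG (6.78%), GGGCGG (43.7%) or CCAAT (33.1%). The DHRS4 promoter was GC-rich (68.9%) with 19 CpG dinucleotides and 4 matches to GGGCGG, and none to the other motifs. The DHRS4L2 promoter shown was 87.4% identical to it over 254 aligned bases, with 21 CpG, 4 matches to GGGCGG and 1 to CAGCTG. DHRS4L2 has another 2 RefSeq promoters, with 23 and 34 CpG. The 2 DHRS4-AS1 promoters had 12 and 8 CpG and no match to any of the 5 motifs. RefSeq promoters were matched for 4 of the 5 genes. All these matches are descriptions of sequence.

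The coding sequences show how far reads of one gene can be told from reads of another. The coding sequences of DHRS4 (834 bases) and DHRS4L2 (696 bases) were 97.3% identical over 696 aligned bases, with a longest identical run of 185 bases. DHRS2 (840 bases) was 73.0% identical to DHRS4, and its longest identical run with DHRS4 was 22 bases. The first 60 coding bases of DHRS4 and DHRS4L2 are shown with the bases that differ from DHRS4 in capitals. They differed at 8 of the 60 bases.
DHRS4, coding bases 1 to 60: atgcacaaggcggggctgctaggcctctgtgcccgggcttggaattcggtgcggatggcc
DHRS4L2, coding bases 1 to 60: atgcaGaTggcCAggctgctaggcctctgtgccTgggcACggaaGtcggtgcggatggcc
The next stretch, coding bases 181 to 240 of DHRS4, is one in which DHRS2 is also closely related. DHRS4L2 had 0 differences from DHRS4 there, and DHRS2 had 6, again in capitals.
DHRS4, coding bases 181 to 240: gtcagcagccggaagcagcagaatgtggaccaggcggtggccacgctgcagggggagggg
DHRS4L2, coding bases 181 to 240: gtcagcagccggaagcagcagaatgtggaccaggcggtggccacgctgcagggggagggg
DHRS2, coding bases 193 to 252: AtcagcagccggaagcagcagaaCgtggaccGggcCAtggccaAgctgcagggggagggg

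In stretches of 50 bases, 37.1% of the transcript sequence of DHRS4 also occurred in another gene on the same strand, chiefly DHRS4L2 (35.4%). For DHRS4L2 the share was 50.3% and for DHRS4L1 47.0%. Part of it lay in AL136419.1 (22.5% and 40.7%), an overlapping gene with no row in the count table. DHRS4 held 32.1% of the DHRS4L2 stretches. Of the DHRS4L1 stretches, DHRS4L2 held 11.6% and DHRS4 8.19%. The share found in any other gene on the same strand was 0.076% for DHRS2 and 0.74% for DHRS4-AS1. On the opposite strand, DHRS4 shared 10.9% of its stretches with DHRS4-AS1, whose annotated span covers all of DHRS4. How the authors' counting treated reads that fit several genes, and whether it used the strand, is not given in the sources used here. The counts of DHRS4, DHRS4L1, DHRS4L2 and DHRS4-AS1 are therefore uncertain, whereas DHRS2 shares almost no sequence with other genes.

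The 6 libraries held 40851783 to 67122986 counts in all, of which the 5 genes together took 2011 to 3077. Levels are given in CPM, which is counts per 1e+06 counts of a library after TMM scaling, and 3 counts correspond to 0.0449 to 0.0734 CPM. All 6 markers chosen for the kidney line (PAX2, LHX1, VIM, KRT8, KRT18 and NEFM) were above 1 CPM in every library. PTPRC, CD3E, CDH5, COL1A2, TTR and SERPINA1, which mark blood cells, endothelium, fibroblasts and hepatocytes, had at most 4 counts in any library. In edgeR's quasi-likelihood fit with the letter as a block, 9.08% of 19574 tested genes were called (Benjamini-Hochberg adjusted p under 0.05), 986 lower with ppk1 (5.04%) and 791 higher (4.04%). With upper-quartile scaling the split was 933 lower and 422 higher.

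DHRS2, the reductase with the reported tie to MDM2, had by far the largest difference of the 5 genes. Its counts in the empty vector libraries were 528 (B), 597 (C) and 470 (D), or 9.99, 13.5 and 11.5 CPM. In the ppk1 libraries they were 221, 165 and 120, or 3.31, 3.44 and 2.87 CPM. Every ppk1 library lay far below every empty vector library, and the ppk1 libraries were closer to one another than the empty vector libraries were. Of all 19574 tested genes, 12.6% likewise had every ppk1 library below every empty vector library. In bulk RNA, fewer cells that express a gene and less RNA per cell cannot be told apart. The mean level was 11.7 ± 1.74 CPM with the empty vector and 3.21 ± 0.30 CPM with ppk1 (SD, n = 3 each). In the paired fit DHRS2 was 3.59-fold lower with ppk1, a log2 fold change of -1.84 (SE 0.11). The differences within pairs B, C and D were -1.58, -1.96 and -1.99 on the log2 scale, with pair B the smallest. Ordered by log2 fold change, DHRS2 was the 30th lowest of all 19574 tested genes and the 7th lowest of the 15095 that averaged 50 counts or more.

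The family was chosen with the difference of these groups known, so the differences of all 5 are descriptions and no p-value is given for them. By the rule used for all genes, 2 of the 5 were called, DHRS2 lower and DHRS4 higher. Beside these counts stand the 9.08% of all tested genes called in that comparison, from which nothing is read here. DHRS2 was called and had the same sign in all 10 alternative fits, with log2 fold changes from -1.78 to -1.98. These fits reuse the libraries by which the family was chosen, so they show only the dependence on processing and are no separate evidence.

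**Figure D1:**
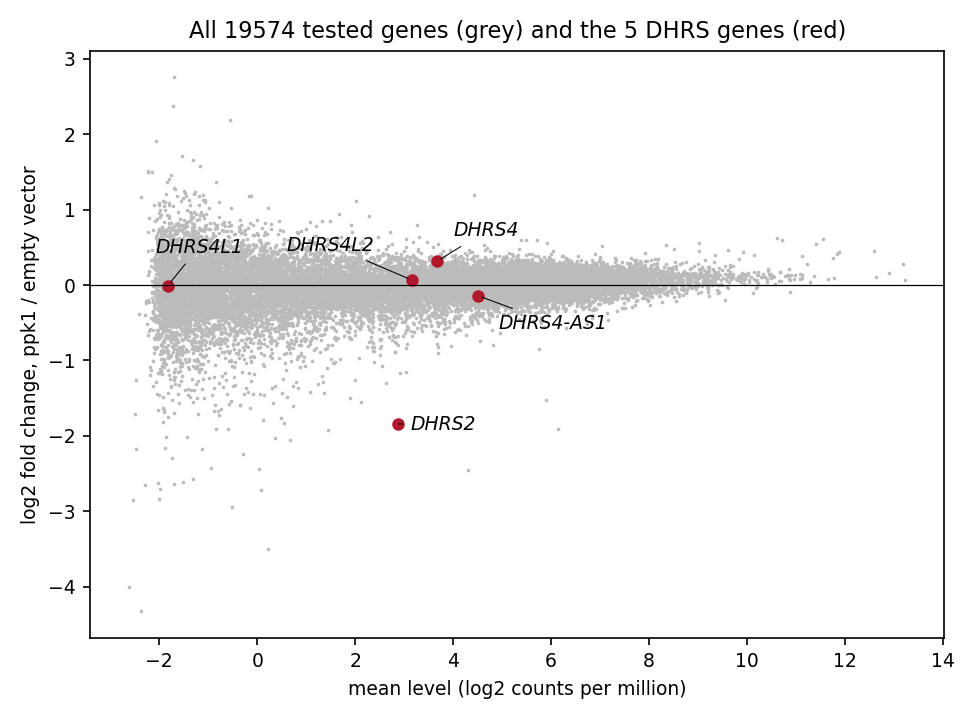
Log2 fold change (ppk1 over empty vector, vertical axis) against mean level (log2 CPM, horizontal axis) for the 19574 tested genes in grey and the 5 DHRS genes in red. DHRS2 lies at -1.84, below most genes of similar level, and the other members lie between -0.14 and 0.32.

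**Figure D2:**
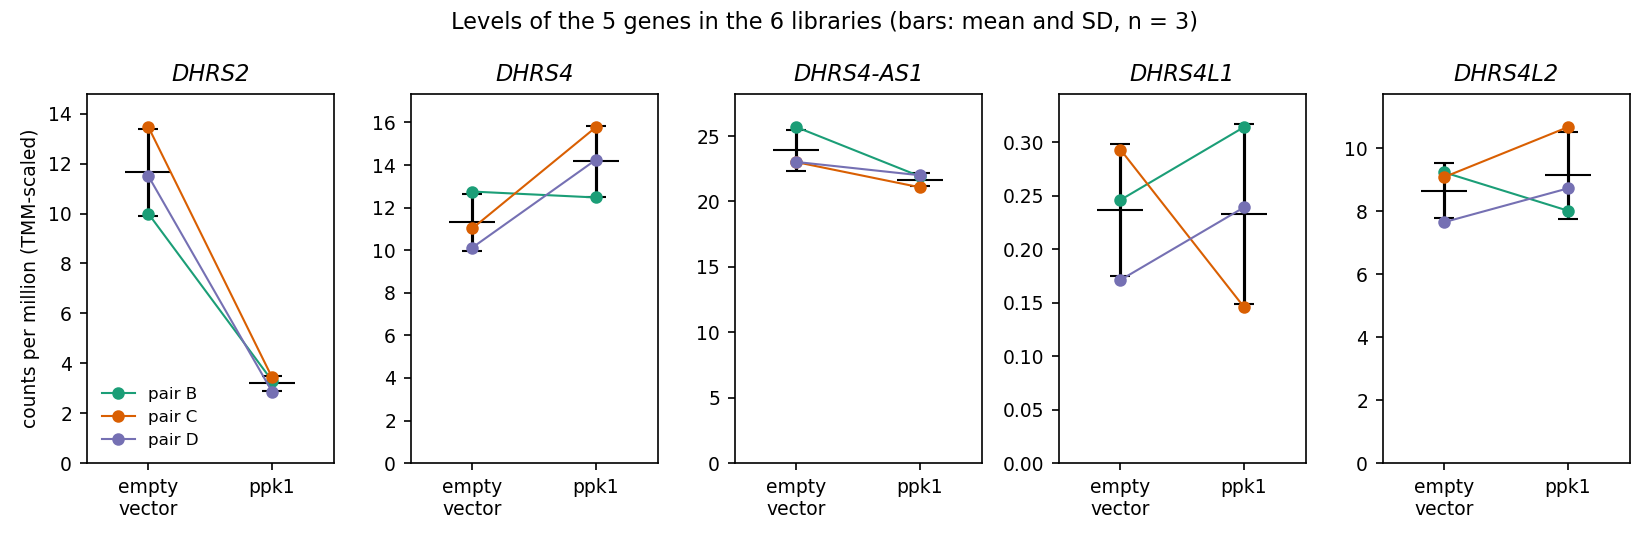
TMM-scaled CPM (vertical axes, each from 0) of the 5 genes in the 6 libraries, with lines joining the libraries of a pair and black bars for the mean and SD (n = 3). DHRS2 drops in all 3 pairs to between 2.87 and 3.44 CPM, and the 4 other genes differ far less.

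DHRS4, the peroxisomal carbonyl reductase, differed in the other direction in pairs C and D. It had 674, 489 and 414 counts in empty vector libraries B, C and D, or 12.8, 11.03 and 10.1 CPM. The ppk1 libraries held 834, 757 and 596 counts, or 12.5, 15.8 and 14.3 CPM. The groups overlapped, because the ppk1 library of pair B lay below the empty vector library of the same pair. The means were 11.3 ± 1.34 and 14.2 ± 1.65 CPM (SD, n = 3), and the fitted log2 fold change was 0.32 (SE 0.10). The pair differences were -0.03, 0.52 and 0.49 on the log2 scale, and leaving out pair B moved the log2 fold change from 0.32 to 0.50. DHRS4 was not called in 6 of the 10 alternative fits: without the block, with upper-quartile scaling, with a floor of 50 on the mean count, with DESeq2, without pair C and without pair D.

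DHRS4L2, the coding copy of DHRS4, showed no common direction. Its counts were 488, 403 and 313 with the empty vector and 536, 512 and 365 with ppk1, in the order B, C and D. These are 9.24, 9.09 and 7.66 CPM against 8.02, 10.7 and 8.73 CPM. The groups overlapped, and only pair B was lower with ppk1. The log2 fold change was 0.07 (SE 0.10), with pair differences of -0.20, 0.23 and 0.19, and it was -0.02 without pair C and -0.01 without pair D. The same order of the pairs, B lowest and C highest, was seen for DHRS4, with which DHRS4L2 shares sequence. When the counts of DHRS4, DHRS4L1 and DHRS4L2 were summed into 1 gene, the log2 fold change was 0.21 (SE 0.09).

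DHRS4L1, the pseudogene copy, was close to the limit of detection. It had 13, 13 and 7 counts with the empty vector and 21, 7 and 10 with ppk1, or between 0.15 and 0.31 CPM over all 6 libraries. The groups overlapped fully, and pair C differed from the other pairs in direction. A difference was not detectable at this depth: the log2 fold change was -0.01 with an SE of 0.39, and it ran from -0.30 without pair B to 0.40 without pair C.

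DHRS4-AS1, the antisense RNA, had the most counts of the 5 in every library. It had 1357, 1020 and 941 counts in the empty vector libraries, or 25.7, 23.0 and 23.0 CPM. The ppk1 libraries held 1465, 1011 and 920 counts, or 21.9, 21.1 and 22 CPM. All ppk1 libraries lay below all empty vector libraries, by a small margin. The groups did not overlap in this direction for 12.6% of all tested genes. The log2 fold change was -0.14 (SE 0.08), with pair differences of -0.23, -0.13 and -0.07, and the gene was not called in any of the fits.

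Within a library, the ratio of counts of a pair of genes needs no scaling. The ratio of DHRS4 to DHRS4-AS1 was 0.497, 0.479 and 0.440 in empty vector libraries B, C and D and 0.569, 0.749 and 0.648 in the ppk1 libraries. It was higher with ppk1 in every pair, by 0.20, 0.64 and 0.56 on the log2 scale, and the groups did not overlap. How often ratios of other genes do so was not computed. Of single tested genes, 22.6% were higher with ppk1 in all 3 pairs, and for 13% the groups did not overlap in that direction. The ratio of DHRS4L2 to DHRS4-AS1 differed by 0.02, 0.36 and 0.25, and that of DHRS4 to DHRS4L2 by 0.17, 0.29 and 0.30. Such ratios show that 2 genes changed unequally and do not show which one changed. The ratio of DHRS2 to DHRS4 was 0.783, 1.22 and 1.14 with the empty vector and 0.265, 0.218 and 0.201 with ppk1. DHRS2 accounted for 17.3% to 23.7% of the counts of the 5 genes with the empty vector and for 5.97% to 7.18% with ppk1.

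**Figure D3:**
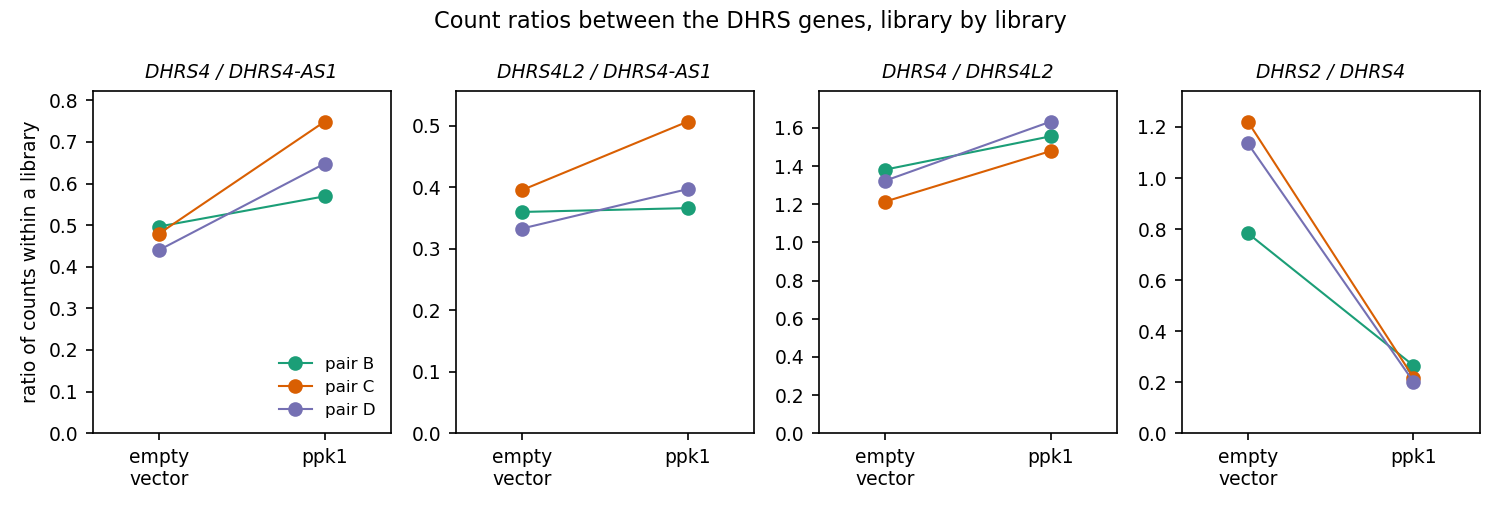
Ratios of counts within a library (vertical axes, each from 0) for 4 gene pairs, with lines joining the libraries of a replicate pair. The ratio of DHRS4 to DHRS4-AS1 is between 0.440 and 0.497 with the empty vector and between 0.569 and 0.749 with ppk1, and the ratio of DHRS2 to DHRS4 is between 0.201 and 0.265 with ppk1.

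Levels of different genes can be compared only per length. Per kilobase of merged exons, the empty vector libraries held 6.65 ± 0.43 CPM for DHRS4-AS1, 4.90 ± 0.58 for DHRS4, 3.44 ± 0.35 for DHRS4L2, 1.54 ± 0.23 for DHRS2 and 0.19 ± 0.05 for DHRS4L1 (CPM per kilobase, SD, n = 3). No neighbours in this order overlapped between libraries. In the ppk1 libraries DHRS4 (6.15 ± 0.72) and DHRS4-AS1 (6.03 ± 0.14) overlapped, and DHRS2 was at 0.42 ± 0.04 CPM per kilobase. The place of DHRS2 depends on the length used. Its merged exons span 7556 bases, whereas its principal transcript has 1705 bases. Per kilobase of the principal transcript, the empty vector levels were 7.83 CPM for DHRS4, 6.83 for DHRS2 and 6.32 for DHRS4L2, and the ppk1 levels were 9.82, 1.88 and 6.67. By these means DHRS2 lay between its relatives with the empty vector and far below both with ppk1. The empty vector means were close. The count ratio of DHRS2 to DHRS4 ran from 0.783 to 1.22 between those libraries, so the order there is not settled.

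Variation between the letters B, C and D is a contrast that the choice of genes did not use. None of the 5 genes was called for a difference between letters, which does not show that there was none. The adjusted p-values of edgeR's quasi-likelihood test were 0.49 for DHRS2 and DHRS4L2, 0.83 for DHRS4 and DHRS4-AS1 and 0.84 for DHRS4L1. The unadjusted p-values of this test ran from 0.097 to 0.57, so 0 of the 5 were below 0.05. In that comparison 0.296% of all tested genes were called. For DHRS2, the fitted level of letter C was 0.27 and that of letter D 0.04 above letter B on the log2 scale.

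The genes on either side of the family were listed to set the DHRS2 difference beside its surroundings. The 6 genes between DHRS2 and DHRS4-AS1 that have a row in the table had at most 2 counts in any library. On the far side of DHRS2, JPH4 (a junctophilin of muscle and neurons) had at most 8 counts, and the nearest protein-coding gene averaging 10 counts or more was AP1G2, a subunit of a clathrin adaptor. The antisense gene AL135999.1, with 339 to 583 counts, lies between JPH4 and AP1G2. AP1G2 had 104 ± 10.2 and 105 ± 6.67 CPM with the empty vector and ppk1 (SD, n = 3), and its log2 fold change was 0.02 (SE 0.07, edgeR adjusted p 0.92). Beyond DHRS4L1, CARMIL3, an actin capping protein regulator, had 11.04 ± 2.01 and 11.4 ± 0.88 CPM, and its log2 fold change was 0.05 (SE 0.10, edgeR adjusted p 0.83). Neither of these flanking genes passed the test.

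Of 26 tested neighbours on both sides, 2 rose and 1 fell, 11.5% of them against 9.08% of all tested genes. Their median log2 fold change was 0.09, against 0.01 over all tested genes. REC8, a meiotic cohesin subunit, rose from 1.26 ± 0.27 to 1.92 ± 0.13 CPM (log2 fold change 0.59, SE 0.18, edgeR adjusted p 0.025). DCAF11, a substrate receptor of a cullin ubiquitin ligase, rose by 0.23 (SE 0.08, edgeR adjusted p 0.041), and EMC9, a subunit of the endoplasmic reticulum membrane complex, fell by 0.25 on the log2 scale (SE 0.08, edgeR adjusted p 0.028). DHRS1, another reductase gene of the region, had 14.3 ± 0.49 and 14.3 ± 0.25 CPM. Among these neighbours, edgeR without the block, edgeR without pair C and DESeq2 each called 0, and 7, 2 and 6 had an unadjusted p below 0.05. Over all tested genes these fits called 470 of 19574, 406 of 19751 and 755 of 17167, fewer than the 1777 of the main fit.

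**Figure D4:**
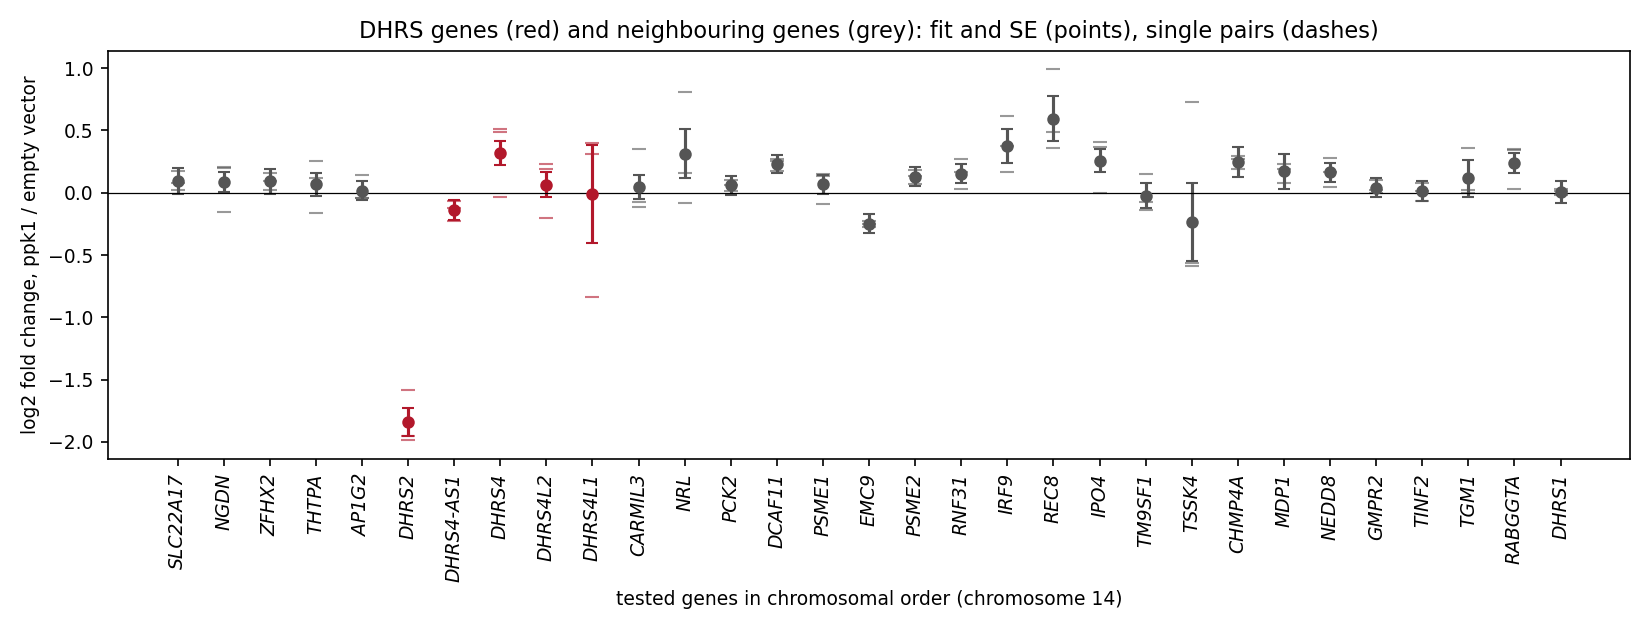
Log2 fold change (ppk1 over empty vector) of the DHRS genes (red) and 26 tested neighbours (grey) in chromosomal order, with the fit and its SE as points and bars and the 3 single pairs as dashes. DHRS2 lies at -1.84, and all other genes shown lie between -0.25 and 0.59.

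The wider enzyme family was listed beside DHRS2. Of 51 other short-chain dehydrogenase/reductase genes tested, 4 rose and 0 fell (7.84% called against 9.08% of all tested genes), with a median log2 fold change of 0.07. The unadjusted p was below 0.05 for 9 higher and 2 lower genes of this list. The 4 were DCXR, which reduces dicarbonyls and xylulose (0.29, SE 0.08), NSDHL of cholesterol synthesis (0.27, SE 0.08), SPR, which makes tetrahydrobiopterin (0.25, SE 0.08), and RDH10, the retinol dehydrogenase of retinoic acid synthesis (0.23, SE 0.08, all as log2 fold changes). Their edgeR adjusted p-values were 0.0092, 0.019, 0.043 and 0.044. The carbonyl reductase gene CBR1 did not pass (0.16, SE 0.08, edgeR adjusted p 0.18). For this list edgeR called 0 without the block and 0 without pair C, where 8 and 1 had an unadjusted p below 0.05, and DESeq2 called 1. Over all tested genes these fits called 470 of 19574, 406 of 19751 and 755 of 17167. Without pair B, 4 were called higher and 1 lower, HSD17B11 of steroid and lipid metabolism (log2 fold change -0.27, edgeR adjusted p 0.031).

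The retinoid list was chosen because DHRS4 reduces retinal. Of 25 tested genes of retinoid metabolism and retinoic acid response, 2 rose and 1 fell, 12% of them against 9.08% of all tested genes, with a median log2 fold change of 0.06. AKR1B1, the aldose reductase, rose from 210 ± 4.59 to 246 ± 10.2 CPM (log2 fold change 0.23, SE 0.07, edgeR adjusted p 0.035), and RDH10 is the other rise. STRA6, the cell surface receptor for retinol binding protein, fell from 0.96 ± 0.17 to 0.58 ± 0.12 CPM (log2 fold change -0.73, SE 0.23, edgeR adjusted p 0.040). The retinoic acid response genes RARB (-0.20, edgeR adjusted p 0.14) and CYP26A1 (-0.21, edgeR adjusted p 0.27) did not pass the test. For this list edgeR called 0 without the block, without pair C and with upper-quartile scaling, where 6, 2 and 5 had an unadjusted p below 0.05, and DESeq2 called 1. Over all tested genes these fits called 470 of 19574, 406 of 19751, 1355 of 19574 and 755 of 17167.

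DHRS4 is a peroxisomal enzyme, and of 35 tested genes of peroxisome assembly and matrix enzymes 1 rose and 1 fell, 5.71% of them against 9.08% of all tested genes. ACAA1, the peroxisomal thiolase, rose by 0.26 (SE 0.08, edgeR adjusted p 0.018), and PEX13, a membrane docking protein, fell by 0.25 on the log2 scale (SE 0.08, edgeR adjusted p 0.030). For this list edgeR called 0 without the block and 0 without pair C, with 2 at an unadjusted p below 0.05 in each. Over all tested genes these fits called 470 of 19574 and 406 of 19751. Of the 11 histone deacetylase genes, edgeR called 0, where it called 9.08% of all tested genes. At an unadjusted p below 0.05 in that fit, 3 were higher. DESeq2 also called 0 of the 11, and it called 755 of 17167 tested genes. The largest of these enzymes by count, HDAC1 and HDAC2, had log2 fold changes of 0.18 (SE 0.07) and 0.02 (SE 0.08). The other list held 15 genes of H3K9 and H3K27 methyltransferase complexes and DNA methyltransferases. Not all of them are among the histone methyltransferases reported to act with DHRS4-AS1. Of these 15, edgeR and DESeq2 each called 0, beside the same 9.08% and 755 of 17167. With edgeR, 1 was higher at an unadjusted p below 0.05. EHMT2 was at 0.13 (SE 0.08) and EZH2 at -0.08 (SE 0.07, both as log2 fold changes). Without pair B, 2 histone deacetylase genes (HDAC7 and HDAC10) and 1 gene of the other list (WIZ, which binds the H3K9 methyltransferases) were called higher. That fit called 2435 of all 19422 tested genes.

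MDM2, the ubiquitin ligase that DHRS2 has been reported to bind, fell from 182 ± 15.2 to 143 ± 11.6 CPM (SD, n = 3). Its log2 fold change was -0.35 (SE 0.07, edgeR adjusted p 0.0011), and it was lower with ppk1 in all 3 pairs, with pair differences of -0.45, -0.25 and -0.34 on the log2 scale. MYC, a growth-promoting transcription factor, was at 154 ± 3.92 and 145 ± 7.66 CPM and did not pass the test (log2 fold change -0.08, edgeR adjusted p 0.51).

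**Figure D5:**
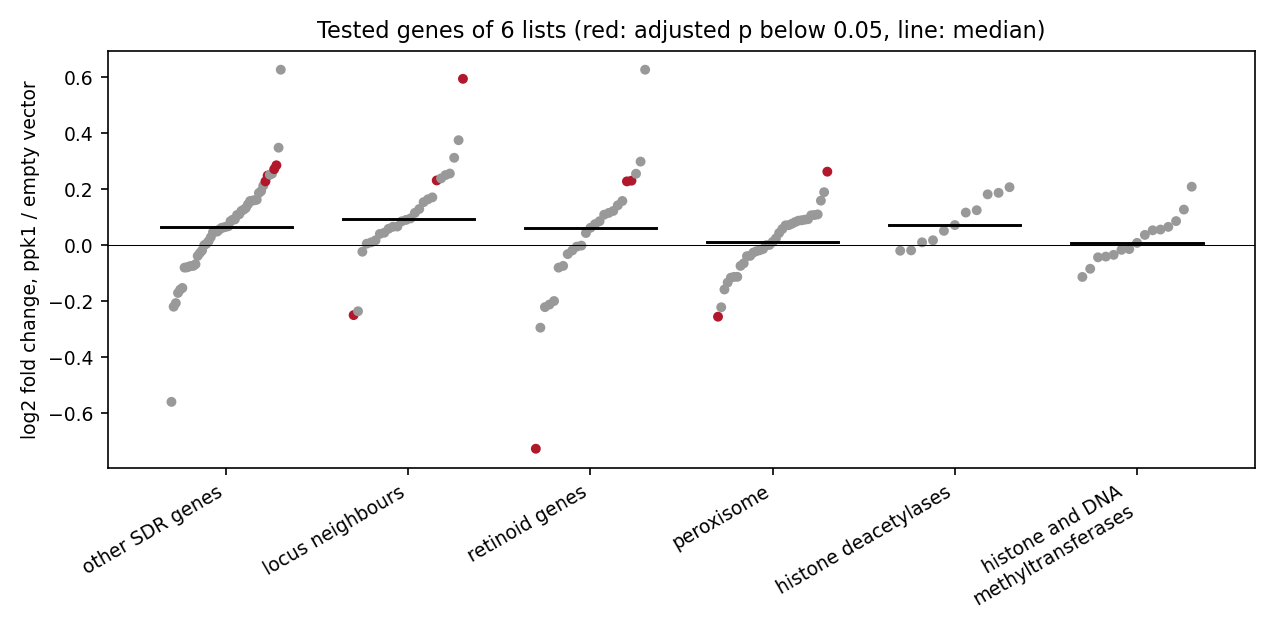
Log2 fold change (ppk1 over empty vector, vertical axis) of each tested gene of the 6 lists, with genes of adjusted p below 0.05 in red and the list median as a line. The medians of the lists lie between 0.01 and 0.09.

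Among the 4 hepatocyte markers of the cell type check, ALB was lower with ppk1 (log2 fold change -1.37, edgeR adjusted p 0.0026) at 9 to 34 counts per library. APOA1, at 10 to 21 counts, did not pass the test (log2 fold change -0.38, edgeR adjusted p 0.54). The summed level of the 4 markers was 0.93 to 1.20 CPM with the empty vector and 0.50 to 0.65 CPM with ppk1, while TTR and SERPINA1 had at most 3 counts. Their part in the DHRS2 difference was not tested.

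The genes whose levels followed DHRS2 most closely over the 6 libraries were MOAP1, ZNF543, ZNF773, C17orf97, GUCY1B2, CHIC2, ZNF549 and ZNF2. Their Pearson correlation with DHRS2 (log2 CPM, n = 6 libraries) was between 0.996 and 0.999. MOAP1, a BAX-binding protein, had the highest, and ZNF543, ZNF773, ZNF549 and ZNF2 are zinc finger genes. Their log2 fold changes were far smaller than that of DHRS2, from -0.24 for GUCY1B2 to -1.02 for C17orf97. The lowest correlations were those of AKR1A1 (-0.993), which encodes another NADPH-dependent carbonyl reductase, MT-TY (-0.992), RGS16 (-0.986) and TPM1 (-0.985), with log2 fold changes between 0.20 and 0.55. Since DHRS2 is high in 1 group and low in the other, these correlations are set chiefly by the group difference, and they share libraries and scaling. Of the other members, DHRS4 had a correlation of -0.78 with DHRS2, DHRS4-AS1 0.69, DHRS4L1 0.07 and DHRS4L2 -0.21.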

How the data were processed

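The authors deposited 1 table of raw read counts per Ensembl gene (58051 genes, 6 libraries). All columns were matched to samples by title, and 0 rows named no gene. Per the submitters' processing notes, bcl2fastq 2.20, Trimmomatic, STAR, HTSeq, edgeR, DESeq, Cufflinks and Cuffdiff were used, without their roles. The genome build, annotation release and strand setting are not given in the sources used here.

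Counts were tested with edgeR 4.0.16 (glmQLFit, glmQLFTest) in R 4.3.3, after filterByExpr (minimum count 10) and TMM scaling, with p-values adjusted by Benjamini-Hochberg over all 19574 tested genes (threshold 0.05). Log2 CPM used a prior count of 2. The replicate letter was a block because the series' design text calls libraries of a letter matched. Deviations from the group means correlated at 0.109 (B), 0.135 (C) and 0.0476 (D) within letters and at -0.12 to -0.00506 between letters. DESeq2 1.42.0 was an alternative. The script was tested on simulated data.

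Transcripts and gene order came from GENCODE release 29, promoters from RefSeq (GRCh38.p14), and alignments from Biopython 1.88. The genes were named by rule: the 5 members, up to 6 called genes per list, the nearest expressed gene on each side, the 8 most and 4 least correlated genes (mean of at least 50 counts), and MDM2 and MYC. One further gene of the rule and the list built around it are not reported here. CBR1, RARB, CYP26A1, HSD17B11, HDAC1, HDAC2, HDAC7, HDAC10, WIZ, EHMT2, EZH2, DHRS1, JPH4 and AL135999.1 were added after their values were seen. The members and lists were chosen with earlier results of these data known.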

Additional observations from a re-analysis of the deposited data

How the results depend on the processing

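The log2 fold change of DHRS2 moved by less than the spread between pairs in all 10 alternative fits, and so did those of DHRS4, DHRS4-AS1 and DHRS4L2. The members called were 1 in place of 2 without the replicate block, with upper-quartile scaling, with a mean of at least 50 counts and by DESeq2, and between 1 and 2 when a pair was left out. No fit with a mean of at least 50 counts could include DHRS4L1. The letter differences kept their side of the threshold with RLE scaling and with a mean of at least 50 counts.

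The calls over all genes were 470 without the replicate block (89 higher, 381 lower), 755 by DESeq2 (324 higher, 431 lower) and, with upper-quartile scaling, 422 higher. Leaving out a pair gave 406 to 2435 calls, 82 to 1263 higher and 324 to 1172 lower. Without the replicate block the lists had 0 calls for the other short-chain dehydrogenases, locus neighbours, retinoid and peroxisome genes (8, 7, 6 and 2 at an unadjusted p below 0.05). The other short-chain dehydrogenases had 2 calls with RLE scaling, upper-quartile scaling, no low-count filter and a mean of at least 50 counts, 1 by DESeq2, and 0 to 5 when a pair was left out. The locus neighbours had 1 with upper-quartile scaling and with no low-count filter, 0 by DESeq2 (6 at an unadjusted p below 0.05), and 0 to 4 when a pair was left out. The retinoid genes had 0 with upper-quartile scaling (5 at an unadjusted p below 0.05), 1 with a mean of at least 50 counts and by DESeq2, and 0 to 2 when a pair was left out. The peroxisome genes had 1 with no low-count filter and by DESeq2, and 0 to 2 when a pair was left out. Leaving out a pair gave 0 to 2 calls for the histone deacetylases and 0 to 1 for the methyltransferases. The cause of these differences was not tested. Depth limits DHRS4L1, with 7 to 21 counts.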
